A study of Homo sapiens with 16 samples.

Results

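The mitochondrial ribosomal protein genes are the nuclear genes that encode the proteins of the ribosome inside mitochondria. They were taken as every protein-coding gene of the deposited expression table whose symbol is MRPL or MRPS, a number and at most 1 letter, with pseudogenes left out. This gave 78 genes of the 22445 gene IDs in the table. By the subunit of the encoded protein, 51 belong to the large subunit, 26 to the small subunit, and 1, MRPS36, is now known as a component of the 2-oxoglutarate dehydrogenase complex and not of the ribosome.

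RNA was sequenced from Molm14, a human acute myeloid leukaemia line that carries a fusion of KMT2A with MLLT3, in 4 groups of 4 libraries. The medium of all groups was RPMI plus fetal bovine serum. DMSO libraries are the controls, iDOT1L libraries had EPZ5676 at 0.16 uM, an inhibitor of the histone H3 lysine methyltransferase DOT1L, and iEZH2 libraries had GSK126 at 0.3 uM, which inhibits EZH2, the methyltransferase within Polycomb repressive complex 2. Combo libraries had both inhibitors. The design text gives 1 dose for each compound, an exposure of 7 days and a renewal of medium and compound on day 4. The extraction text instead places the RNA 3 days after a sort, and the exposure of 7 days was followed here. All libraries come from 1 cell line, and nothing in the labels says whether the 4 libraries of a group are separate cultures, so p-values measure the spread between these samples, which may be technical.

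Mitochondrial ribosomes translate the few mRNAs transcribed from mitochondrial DNA, all of which encode subunits of the respiratory chain or of ATP synthase. Their ribosomal RNAs come from mitochondrial DNA, whereas every one of their proteins is encoded in the nucleus, made in the cytosol and imported. Part of the proteins have counterparts in the bacterial ribosome, and part are found only in mitochondria. Among the 78 genes, 29 of the large subunit and 16 of the small subunit encode proteins with a bacterial counterpart, and 22 of the large subunit and 10 of the small subunit encode other proteins. MRPS30 and MRPS18A, named for the small subunit, encode proteins of the large one.

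Library totals were 22444761 to 24124680 normalised counts, and 20480 to 21315 genes were detected per library. All 8 markers of myeloid leukaemia cells, among them PTPRC, CD33 and SPI1, had a mean of at least 10 normalised counts, and their summed level was 35032 to 39196 in DMSO, 45756 to 49799 with iDOT1L, 30146 to 36780 with iEZH2 and 45360 to 53574 with Combo. CD3D, a marker of T cells, reached at most 31.3 normalised counts in a library. The summed level of 4 epithelial markers, of which KRT8, KRT18 and CDH1 were above a mean of 10, was 1031 to 1405 normalised counts in DMSO, 591 to 817 with iDOT1L, 1124 to 1311 with iEZH2 and 783 to 1066 with Combo. That of 3 fibroblast markers was 86.8 to 145 in DMSO, 133 to 276 with iDOT1L, 98.9 to 301 with iEZH2 and 235 to 297 with Combo. For 3 B-cell markers it was 80.1 to 97.7, 95.0 to 136, 64.5 to 71.8 and 73.2 to 141 in the same order, and the part of any of these in the results was not tested.

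All 78 genes entered the test, and 77 of them had a mean of at least 100 normalised counts over the 16 libraries. Divided by transcript length, the median level of the 78 genes was 1035 normalised counts per kb, with quartiles at 604.5 and 1528. MRPL51 stood highest at 3108 normalised counts per kb, followed by MRPL42 at 3012, MRPS27 at 2706 and MRPL23 at 2549. At the lower end stood MRPL50 at 220.6, MRPS18B at 184.9 and MRPS17 at 171.5 normalised counts per kb. From the highest to the lowest of these genes the level per kb differed 18.1-fold, and the medians were 1079 for the large and 832.3 for the small subunit. MRPL45, which encodes a large subunit protein near the exit of the nascent chain, was apart from the rest, with 0 to 8.226 normalised counts and 8 libraries at 0, and no fold change is given for it. The table also holds 1661 IDs that could not be named here. The values of the ID used for MRPL45, or for any other of the 78 genes, may thus not be all of that gene's counts.

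**Figure D1:**
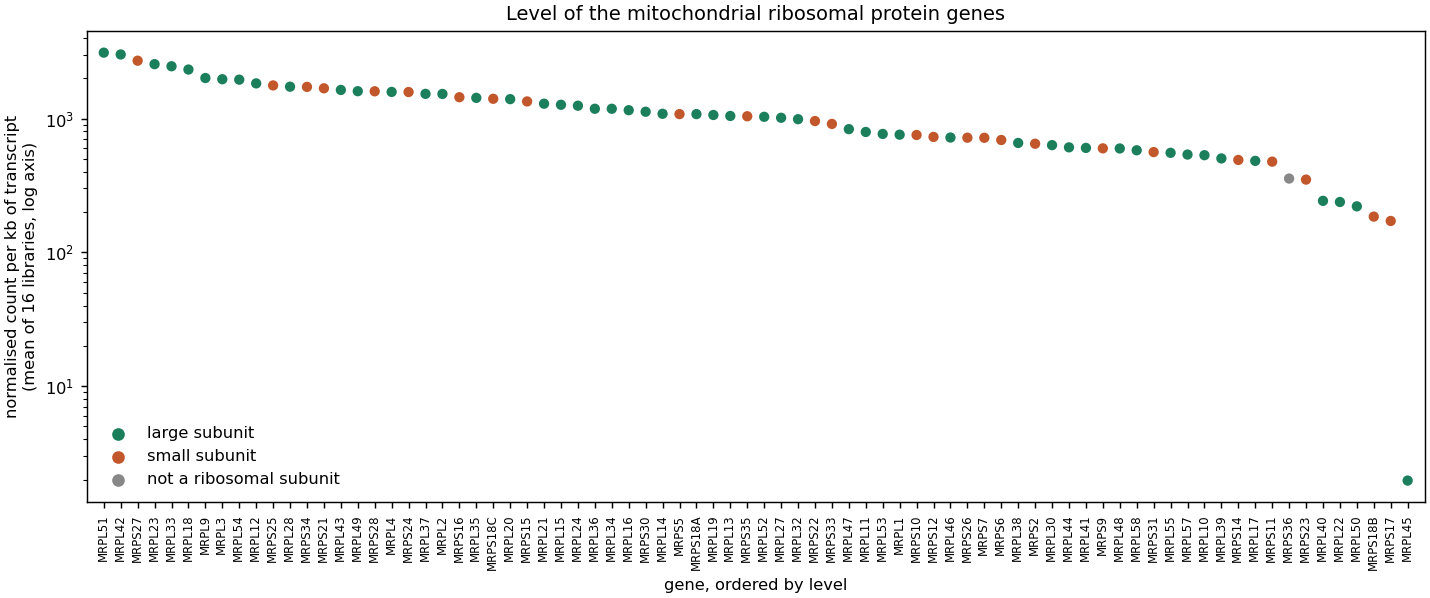
Mean level of the 78 genes over 16 libraries, in normalised counts per kb of transcript on a log axis, ordered from high to low and coloured by subunit. The genes run from MRPL51 at 3108 to MRPS17 at 171.5 in a continuous slope, and MRPL45 lies below all others.

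For 16 of the 78 genes more than 20% of the 31-base words of the annotated transcripts also occur in another gene, so that the way reads were assigned can move counts between the copies, and their levels are uncertain. MRPL12 shares 67.23% of its words, the most in this group, with AC139530.2, a gene model that spans it. The same holds for MRPS18A (49.27%), MRPS18C (42.68%), MRPS17 (40.93%), MRPS28 (33.33%) and MRPL51 (27.74%). Of the genes on which the comparisons below turn, MRPL1 shares 1.196%, MRPS27 4.121%, MRPL28 8.111%, MRPS6 8.445%, MRPL48 12.57% and MRPL57 14.35%.

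With the DOT1L inhibitor alone, 3 of the 78 genes fell and 0 rose. Over all 22331 genes tested, 3.17% fell and 3.08% rose. The genes that fell were MRPS6, MRPL1 and MRPS27. Among all 78 the median log2 difference from DMSO was -0.08, and 59 lay below 0, beside a median of 0.01 and 48.7% below 0 over all genes tested. In these bulk libraries, fewer cells with a transcript and less of it per cell cannot be told apart.

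MRPS6 encodes a small subunit protein with a bacterial counterpart (chr21:34073224-34143034 in GRCh38, plus strand). Its level in DMSO libraries 1 to 4 was 695.5, 730.0, 745.6 and 828.0 normalised counts. With iDOT1L it was 465.9, 497.6, 468.8 and 471.5. The 4 iDOT1L libraries lay close together and below every DMSO library. MRPS6 differed by -0.65 on the log2 scale (SE 0.10, limma adjusted p = 4.87e-04), a level 0.636 times that in DMSO.

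MRPL1 (chr4:77862520-77952790, plus strand) encodes the protein of the L1 stalk, the mobile arm of the large subunit beside the tRNA exit site. DMSO libraries held 1272, 1314, 1449 and 1500 normalised counts of MRPL1, and iDOT1L libraries held 869.0, 836.6, 914.1 and 1022. The groups did not overlap, and the difference was -0.60 (SE 0.11, limma adjusted p = 0.00172). MRPS27 (chr5:72219409-72320646, minus strand) encodes a pentatricopeptide repeat protein of the small subunit with no bacterial counterpart, and was the gene of the 78 with the highest mean normalised count, 3705. Its libraries held 4037, 4304, 3935 and 4279 normalised counts in DMSO and 3047, 3459, 3024 and 3193 with iDOT1L, again without overlap. The difference was -0.38 (SE 0.08, limma adjusted p = 0.00761).

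These 3 calls held in each of the 19 alternative fits. The replicate number was also used as a block, fitted over all 16 libraries, Combo included. With this block, 6 of the 78 genes fell and 0 rose, beside 6.53% and 5.69% of all genes tested. The genes added were MRPL28 (difference -0.26, limma adjusted p = 0.0551 without and 0.0212 with the block), MRPL37 (-0.23, 0.0700 and 0.0212) and MRPS30 (-0.23, 0.128 and 0.0117), all 3 of the large subunit. MRPL37 is named because the block called it.

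**Figure D2:**
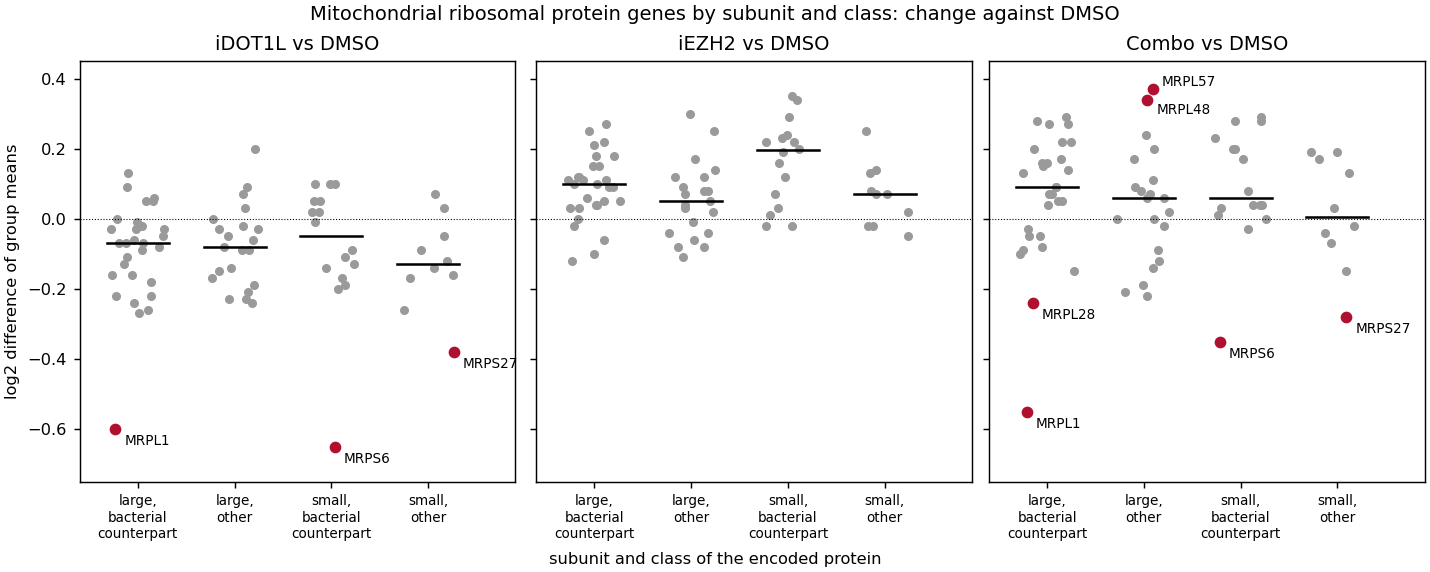
Log2 difference of group means from DMSO for 76 genes in each treatment, by subunit and by whether the encoded protein has a bacterial counterpart, with medians as bars and called genes in red. MRPL45 and MRPS36 are not drawn. MRPS6, MRPL1 and MRPS27 stand below the other genes with iDOT1L, no gene is called with iEZH2, and genes are called on both sides of 0 with Combo.

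The promoters of the genes that changed are shown so that their motifs can be read beside these values. RefSeq promoter windows in GRCh38.p14, from 250 bases before to 50 bases after an annotated start, could be matched for 69 of the 78 genes, with 85 windows in all. They were searched on both strands for 4 motifs of factors known to act at mitochondrial genes, none of which contains another. The ETS motif CCGGAAG, the core bound by GABP (nuclear respiratory factor of the ETS family), was in 38.8% of the windows of the 69 genes, beside 12.8% of the windows of all protein-coding genes and 10.3% of all windows. The YY1 motif AAGATGGCG was in 15.3%, beside 2.41% and 1.75%. The NRF1 motif, GCGCA and GCGC with any 1 base between them, was in 11.8%, beside 7.39% and 5.78%, and the E-box CACGTG in 10.6%, beside 8.34% and 7.26%. The windows compared with were not matched to the 69 genes in expression level or base content. Whether these shares are particular to the 69 genes was not tested. The windows shown are MRPL1 (chr4:77862580-77862879, plus strand), MRPS27 (chr5:72320191-72320490, minus strand) and MRPS6 (chr21:34073328-34073627, plus strand), which fell with iDOT1L and hold none of the 4 motifs, MRPL57 (chr13:21176408-21176707, plus strand), which rose with Combo and holds an NRF1 match, and MRPL28 (chr16:370489-370788, minus strand), which fell with Combo and holds an ETS match on the opposite strand. Capitals mark the match, which is a match of letters and not a shown binding site.
MRPL1: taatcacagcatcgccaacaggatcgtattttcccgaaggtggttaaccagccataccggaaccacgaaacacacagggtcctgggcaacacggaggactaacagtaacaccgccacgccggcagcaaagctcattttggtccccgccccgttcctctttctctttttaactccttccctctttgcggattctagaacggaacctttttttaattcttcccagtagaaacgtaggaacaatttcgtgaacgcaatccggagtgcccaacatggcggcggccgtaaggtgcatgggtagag
MRPS27: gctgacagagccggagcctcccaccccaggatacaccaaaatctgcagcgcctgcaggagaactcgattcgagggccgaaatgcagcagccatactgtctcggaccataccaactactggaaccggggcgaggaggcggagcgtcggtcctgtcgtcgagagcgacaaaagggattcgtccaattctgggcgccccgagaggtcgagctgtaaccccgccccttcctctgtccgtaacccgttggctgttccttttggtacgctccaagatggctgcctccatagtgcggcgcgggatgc
MRPS6: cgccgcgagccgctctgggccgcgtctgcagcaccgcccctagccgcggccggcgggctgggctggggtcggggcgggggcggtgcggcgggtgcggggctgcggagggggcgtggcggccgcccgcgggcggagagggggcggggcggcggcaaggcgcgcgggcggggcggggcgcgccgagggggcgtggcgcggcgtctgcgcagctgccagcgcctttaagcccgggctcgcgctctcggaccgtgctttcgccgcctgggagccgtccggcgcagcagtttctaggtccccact
MRPL57: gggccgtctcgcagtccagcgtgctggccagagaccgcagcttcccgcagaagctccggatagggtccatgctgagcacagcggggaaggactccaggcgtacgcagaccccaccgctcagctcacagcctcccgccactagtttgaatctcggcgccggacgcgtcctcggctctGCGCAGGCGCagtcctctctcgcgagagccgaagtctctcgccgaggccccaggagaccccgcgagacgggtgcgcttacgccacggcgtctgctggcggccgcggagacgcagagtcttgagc
MRPL28: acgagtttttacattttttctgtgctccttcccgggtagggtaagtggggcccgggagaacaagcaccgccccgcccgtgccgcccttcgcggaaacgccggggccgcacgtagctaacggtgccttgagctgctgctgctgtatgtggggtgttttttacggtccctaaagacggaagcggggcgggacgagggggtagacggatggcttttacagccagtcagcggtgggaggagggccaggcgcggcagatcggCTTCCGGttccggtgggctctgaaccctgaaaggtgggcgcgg

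The windows of MRPL1, MRPS27 and MRPS6 differ from the other 2 in having no capitals, that is, no exact match to the 4 motifs in these bases. Near matches were not counted, such as AAGATGGCT in MRPS27 and AACATGGCG in MRPL1, which resemble the YY1 motif. The share of windows with none of the 4 motifs was not counted, and whether a missing match goes with a fall was not tested. The ETS motif was also in the window of MRPL48, which is not shown.

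MRPS6 and MRPL1 lie beside genes that also fell with iDOT1L. These neighbours were looked up after the genes that fell were known. SLC5A3, which encodes a sodium-coupled myo-inositol transporter, starts inside MRPS6 at chr21:34073570-34106262 on the same strand, and its start lies in the promoter window printed above. The annotated exons of the 2 genes share 273 bases, 6.35% of the exon bases of MRPS6. SLC5A3 held 1742, 1495, 1492 and 1455 normalised counts in DMSO libraries 1 to 4 and 1163, 837.0, 779.3 and 808.9 with iDOT1L, a difference of -0.80 (SE 0.17, limma adjusted p = 0.00794). With iEZH2 it held 2785, 1405, 1560 and 1402, with library 1 far above the others and the other 3 among or just below the DMSO values (0.15, SE 0.17, adjusted p = 0.748), and with Combo 871.5, 940.4, 790.4 and 844.7 (-0.84, SE 0.17, adjusted p = 0.00231). The Combo libraries of SLC5A3 thus overlapped its iDOT1L libraries and lay below its DMSO libraries.

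CNOT6L, the next protein-coding gene on 1 side of MRPL1, encodes a deadenylase of the CCR4-NOT complex, which shortens the poly(A) tails of mRNAs. It lies at chr4:77713387-77819615 on the other strand, with 42904 bases between the 2 genes. DMSO libraries held 8553, 7236, 6026 and 5997 normalised counts of CNOT6L and iDOT1L libraries 4377, 2311, 2002 and 2071. The difference of -1.43 (SE 0.31, limma adjusted p = 0.0124) was larger in size than that of MRPL1. With iEZH2 CNOT6L held 7252, 4646, 3635 and 2418 (-0.73, SE 0.31, adjusted p = 0.266, and 0.00513 with the replicate number as a block), and with Combo 1732, 1598, 1070 and 1103 (-2.35, SE 0.31, adjusted p = 1.17e-04). Across the groups, CNOT6L was lowest with Combo, while MRPL1 had about the same level with iDOT1L and with Combo. Of the genes beside MRPS27, PTCD2 differed by -0.25 (adjusted p = 0.403) and MAP1B by -0.34 (adjusted p = 0.207, and 0.0122 with the replicate number as a block) with iDOT1L. ZNF366, at a DMSO mean of 6.574 normalised counts, differed by 0.52 (adjusted p = 0.707). Of the genes next to MRPL28, MRPL48 and MRPL57, only NME4 beside MRPL28 fell with iDOT1L (-0.42, adjusted p = 0.0156). The call of NME4 was lost without DMSO library 4 or iDOT1L library 1. With Combo no gene next to MRPL28, MRPL48 or MRPL57 was called without the block. PTCD2 and MRPS27 overlap at their starts on opposite strands, and the counting is not stated to use strand.

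**Figure D3:**
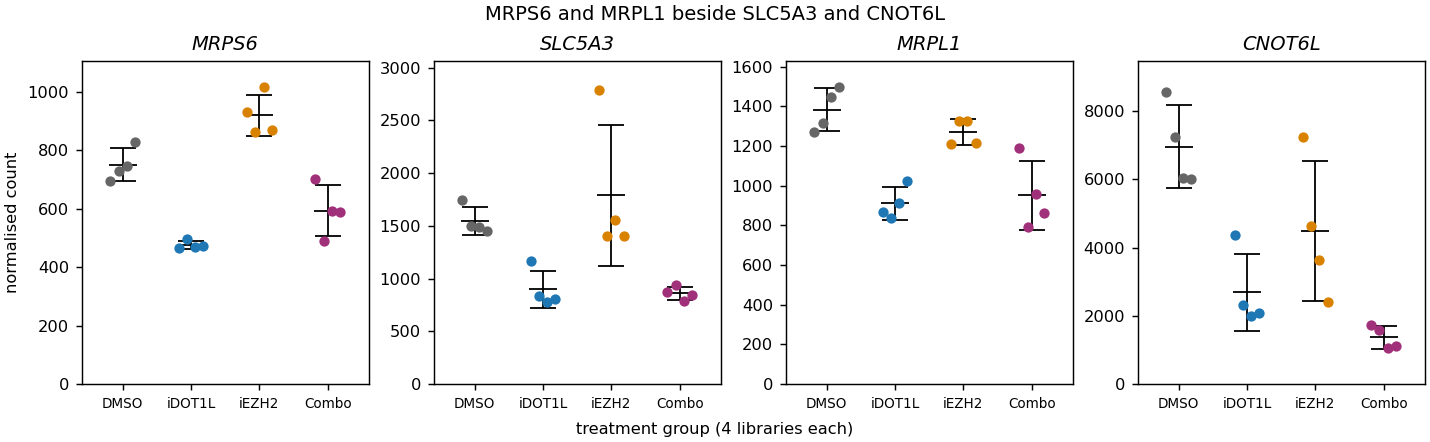
Normalised counts of MRPS6 beside SLC5A3 and of MRPL1 beside CNOT6L in the 4 libraries of each group, points for libraries and bars for mean and SD, with axes from 0. Both genes of each pair are lower with iDOT1L than with DMSO in every library, and the pairs differ in the other groups, where CNOT6L is lowest with Combo.

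With the EZH2 inhibitor alone, limma called 0 of the 78 genes in either direction, and 10 (12.8%) had an unadjusted p under 0.05, beside 15.7% of all genes tested. Over all genes tested, 1.30% rose and 2.05% fell. The median log2 difference of the 78 genes was 0.08, with 60 above 0, beside a median of 0.02 over all genes tested. Genes of the small subunit with a bacterial counterpart had a median of 0.19, with 14 of 16 above 0, and genes of the large subunit with one had 0.10, with 25 of 29 above 0. The other genes of the small subunit had a median of 0.07, with 7 of 10 above 0, and those of the large subunit 0.05, with 14 of 22. MRPS9, which encodes a small subunit protein with a bacterial counterpart, held 703.9, 898.6, 811.2 and 794.2 normalised counts in DMSO and 823.2, 1126, 1119 and 1014 with iEZH2, so that library 1 of iEZH2 lay within the DMSO range and the other 3 above it. The difference was 0.34 (SE 0.11, limma adjusted p = 0.0961 without and 0.0116 with the replicate block), and MRPS9, named because the block called it, was the only 1 of the 78 that rose under the block, while 0 fell, beside 3.87% and 5.89% of all genes tested. MRPS6 held 931.7, 860.4, 1014 and 868.0 with iEZH2, each above the highest DMSO library, with a difference of 0.29 (SE 0.10, limma adjusted p = 0.141). MRPL1 and MRPS27 differed from DMSO by -0.12 (adjusted p = 0.655) and -0.02 (adjusted p = 0.931).

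With both inhibitors, 2 of the 78 genes rose and 4 fell, beside 7.22% and 8.80% of all genes tested. MRPL57 and MRPL48 rose, and MRPL1, MRPS6, MRPS27 and MRPL28 fell. The median difference of the 78 genes was 0.06, with 53 above 0, and that of all genes tested was 0.03. These calls share their DMSO libraries with those of the single inhibitors, so the values of the 3 comparisons are set side by side and not counted against each other.

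MRPL57 (chr13:21176645-21179084, plus strand) and MRPL48 (chr11:73787316-73865133, plus strand) both encode large subunit proteins with no bacterial counterpart. MRPL57 held 1034, 1185, 1025 and 1059 normalised counts in DMSO, 1163, 1310, 1190 and 1267 with iDOT1L, 981.6, 1255, 1204 and 1107 with iEZH2, and 1544, 1321, 1335 and 1351 with Combo. Every Combo library lay above every library of the other groups. The difference between Combo and DMSO was 0.37 (SE 0.09, limma adjusted p = 0.00824), and those of iDOT1L and iEZH2 were 0.20 (adjusted p = 0.258) and 0.08 (adjusted p = 0.755). MRPL48 held 604.7, 638.8, 606.8 and 651.9 in DMSO, 631.8, 634.8, 780.8 and 622.0 with iDOT1L, 699.3, 833.3, 779.5 and 772.5 with iEZH2, and 945.2, 701.5, 702.5 and 832.3 with Combo. Its iEZH2 and Combo libraries all lay above the DMSO libraries. The difference with Combo was 0.34 (SE 0.11, limma adjusted p = 0.0370), and with iEZH2 it was 0.30 (adjusted p = 0.147). The call of MRPL48 was lost in 10 of 19 alternative fits, with an adjusted p of up to 0.179.

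Among the genes that fell, MRPL1 held 1188, 793.1, 958.6 and 864.4 normalised counts with Combo, all below the DMSO range and with library 1 nearest to it (-0.55, SE 0.11, limma adjusted p = 0.00146). MRPS6 held 702.0, 488.4, 590.7 and 587.4 (-0.35, SE 0.10, adjusted p = 0.0253). Its library 1 lay within the DMSO range and the other 3 below it. MRPS27 held 3693, 3257, 3171 and 3545, all below the DMSO libraries (-0.28, SE 0.08, adjusted p = 0.0269). MRPL28 (chr16:366969-371289, minus strand), of the large subunit with a bacterial counterpart, held 1712, 1948, 1812 and 1995 in DMSO, 1518, 1560, 1553 and 1575 with iDOT1L, 1772, 1743, 1934 and 1711 with iEZH2, and 1693, 1412, 1553 and 1682 with Combo. The iDOT1L and Combo libraries of MRPL28 all lay below the DMSO libraries, by a narrow margin in Combo library 1 (-0.24, SE 0.08, adjusted p = 0.0486). Of these 6 calls, those of MRPL1 and MRPL57 held in each of 19 alternative fits. That of MRPS6 was lost with only the groups compared (adjusted p = 0.0562), and without DMSO library 3 or 4 or Combo library 2, 3 or 4. That of MRPS27 was lost without DMSO library 2 or 4 or Combo library 2 or 3. The call of MRPL28 was lost in 9 of 19 (adjusted p of up to 0.140), with TMM or median of ratios scaling, with only the groups compared, and without DMSO library 2, 3 or 4 or Combo library 2, 3 or 4. The count of genes that fell was 1 without DMSO library 4, Combo library 2 or Combo library 3, and 2 without DMSO library 2, DMSO library 3 or Combo library 4. The count of genes that rose was 4 without Combo library 2, and 1 without DMSO library 1, 3 or 4 or Combo library 1 or 4. For these counts the shares of all genes tested in the same fits are not given here.

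**Figure D4:**
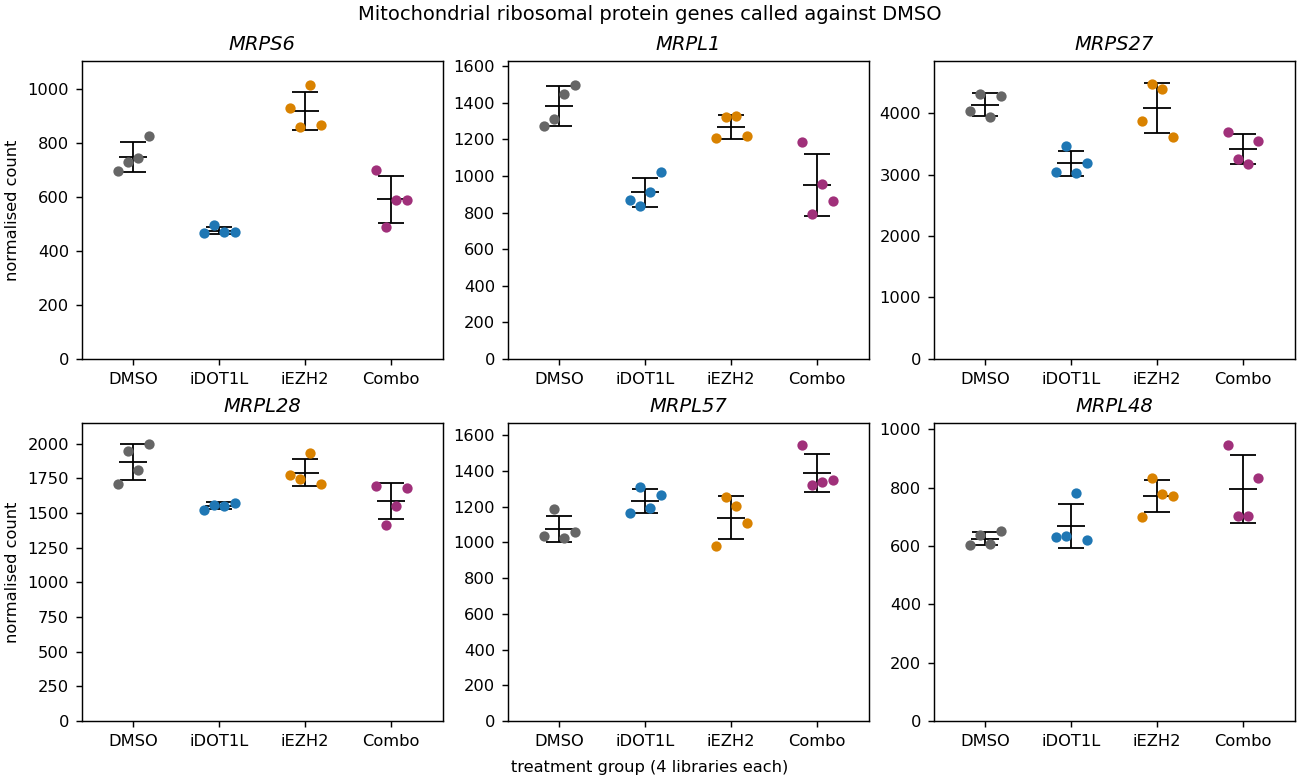
Normalised counts of the 6 genes called against DMSO with iDOT1L or Combo, in the 4 libraries of each group, points for libraries and bars for mean and SD, with axes from 0. MRPS6 and MRPL1 are lowest with iDOT1L at means of 475.9 and 910.5, and MRPL57 is highest with Combo at a mean of 1388.

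Between Combo and iDOT1L, limma called 0 of the 78 genes in either direction, beside 1.11% of all genes tested that were higher and 1.48% that were lower. An unadjusted p under 0.05 was found for 24 of the 78 (30.8%), beside 16.6% of all genes tested. Of the 78 differences 76 were above 0, with a median of 0.15, beside 0.01 over all genes tested. MRPS6 differed by 0.30 (SE 0.10, limma adjusted p = 0.132), and without Combo library 2 it was the 1 gene called. Between Combo and iEZH2, 2 of the 78 were lower and 0 higher in Combo, beside 1.72% and 2.08% of all genes tested. They were MRPS6 (-0.64, SE 0.10, limma adjusted p = 8.62e-04) and MRPL1 (-0.43, SE 0.11, adjusted p = 0.0297). Only MRPS6 was called without any 1 of iEZH2 libraries 1, 2 and 3 or Combo libraries 2, 3 and 4.

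Between iDOT1L and iEZH2, 5 of the 78 genes were lower with iDOT1L and 0 higher, beside 3.06% and 3.88% of all genes tested. MRPS6 differed by -0.94 (SE 0.10, limma adjusted p = 1.81e-05), with iDOT1L at 0.520 times the iEZH2 level. MRPL1 differed by -0.48 (adjusted p = 0.00928) and MRPS27 by -0.36 (adjusted p = 0.0109). MRPL14, a large subunit protein with a bacterial counterpart at the interface of the subunits, held 813.9, 901.2, 941.7 and 957.5 with iDOT1L and 1019, 1241, 1257 and 1088 with iEZH2, without overlap (-0.35, SE 0.09, adjusted p = 0.0239). MRPS28, of the small subunit, held 721.1, 801.7, 882.9 and 833.5 with iDOT1L and 947.5, 1175, 1182 and 1013 with iEZH2 (-0.41, SE 0.11, adjusted p = 0.0313). The DMSO libraries of MRPL14, at 958.5 to 1155, all lay above its iDOT1L libraries and overlapped its iEZH2 libraries. The call of MRPL14 was lost in 4 of 19 alternative fits (adjusted p of up to 0.0993), among them those without iDOT1L library 1 or iEZH2 library 2 or 3. That of MRPS28 was lost in 6 of 19 (up to 0.116), among them those without iDOT1L library 1, 2 or 4 or iEZH2 library 2 or 3. MRPS27 was not called here without iEZH2 library 3 or with only the groups compared (up to 0.0522). MRPL14 and MRPS28 were not called against DMSO with either inhibitor.

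Over the 78 genes the median difference between iDOT1L and iEZH2 was -0.16, and 72 lay below 0, beside a median of 0.00 over all genes tested. With the replicate number as a block, 19 of the 78 were lower and 0 higher, beside 6.91% and 7.35% of all genes tested, 11 of the 19 from the large and 8 from the small subunit. The count without the block was 12 without iEZH2 library 1, 2 without iEZH2 library 3, and 3 without iDOT1L library 1 or iEZH2 library 2. Without the libraries numbered 1 of all 4 groups it was 9. The shares of all genes tested in these fits are not given here. A change particular to the 78 genes thus cannot be told from a general change in calls. The interaction, Combo minus iDOT1L minus iEZH2 plus DMSO, gave 0 of the 78 by limma, with 0 of the 78 at an unadjusted p under 0.05, and 0 over all genes tested, of which 848 had an unadjusted p under 0.05.

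Summed over the 78 genes, the level was 94942 ± 6220 normalised counts in DMSO (SD, n = 4), 88893 ± 6669 with iDOT1L, 100699 ± 9073 with iEZH2 and 98178 ± 4997 with Combo. The means differed from that of DMSO by -6.37%, 6.06% and 3.41%, and no test was made of the sum. Each difference was less than the SD of its group, which describes single libraries and not the error of a difference between means. With median of ratios scaling the value for Combo was 6.38%. DMSO libraries 1 to 4 summed to 86878, 101894, 94476 and 96520, and iDOT1L libraries to 79112, 93609, 90265 and 92587. With iEZH2 the sums were 89776, 108317, 108014 and 96690, and with Combo 105115, 93304, 96473 and 97819. The ranges of all 4 groups overlapped. Against the DMSO library of the same number, the sum was lower in all 4 iDOT1L libraries, with differences of -8.94%, -8.13%, -4.46% and -4.07%, and higher in all 4 iEZH2 libraries, with differences of 3.34%, 6.30%, 14.3% and 0.177%. The large subunit summed to 1.82 times the small subunit in DMSO, 1.83 times in iDOT1L, 1.77 in iEZH2 and 1.81 in Combo. Library by library, the ratio was 1.75 to 1.79 in iEZH2, below the 1.81 to 1.83 of DMSO and the 1.82 to 1.85 of iDOT1L, and 1.78 to 1.84 in Combo, which overlapped all 3. No test was made of the ratio.

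Libraries numbered 1 stood at an end of their groups in most of these genes, and some other libraries did so too. In DMSO library 1, 58 of the 78 genes were at their lowest level in the group, in iDOT1L library 1 it was 66 and in iEZH2 library 1 it was 62. In Combo library 1, in contrast, 55 of the 78 were at their highest. DMSO library 2 held the highest level for 57 of the 78, and Combo library 2 the lowest for 45. The median deviation of the 78 genes from the DMSO mean was -0.15 in DMSO library 1, -0.27 in iDOT1L library 1, -0.08 in iEZH2 library 1 and 0.18 in Combo library 1, while the same median over all genes with a mean of at least 50 was between -0.04 and 0.00 in these 4 libraries. For the 78 genes the median deviation was 0.12 in DMSO library 2, and 0.19 and 0.18 in iEZH2 libraries 2 and 3. Set against the DMSO library of the same number, the iDOT1L libraries had median differences of -0.13, -0.12, -0.03 and -0.04, the iEZH2 libraries 0.05, 0.08, 0.20 and 0.02, and the Combo libraries 0.32, -0.12, 0.05 and 0.03. Over all genes with a mean of at least 50 these medians were -0.03, -0.02, -0.01 and -0.02 with iDOT1L. They were -0.01, 0.00, 0.00 and -0.03 with iEZH2, and -0.02, -0.04, -0.01 and -0.04 with Combo. Without the libraries numbered 1 the summed level with Combo differed from DMSO by -1.81%, against 3.41% with them. The share of mitochondrially encoded mRNAs was also lowest in library 1 of DMSO, iDOT1L and iEZH2, at 1.66%, 1.80% and 1.85% of the library, and its part in these results was not tested.

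**Figure D5:**
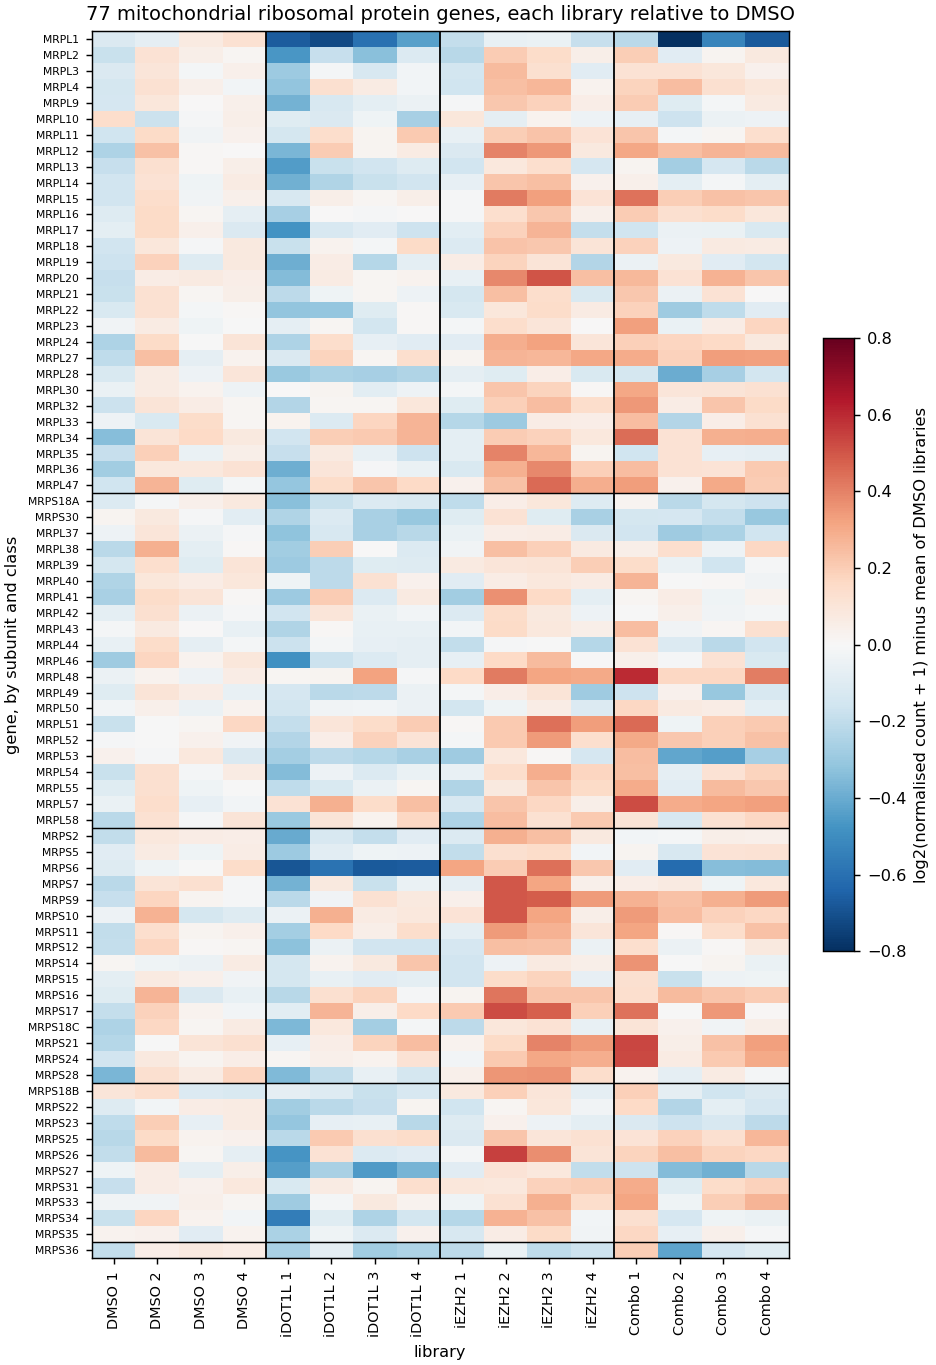
Level of 77 genes in each of the 16 libraries as log2(normalised count + 1) minus the mean of the DMSO libraries, red above and blue below, with genes by subunit and class and MRPL45 not drawn. Most rows are blue in library 1 of DMSO, iDOT1L and iEZH2 and red in Combo library 1, while MRPS6, MRPL1 and MRPS27 are blue in all 4 iDOT1L libraries.

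MRPL10, MRPL12, MRPL44, MRPL58, MRPS12, MRPS30 and the MRPS18 genes were taken for their roles in the ribosome, and without the block none of them was called against DMSO. MRPL10 and MRPL12 form the stalk that binds translation factors. MRPL10 differed by -0.13, 0.00 and -0.08 with iDOT1L, iEZH2 and Combo, and MRPL12 by -0.02, 0.18 and 0.27, with adjusted p of at least 0.167. MRPL12 had Combo libraries of 2142, 2049, 2091 and 2067 normalised counts, close together and above its DMSO range of 1461 to 2034. MRPL44, which has a fold of the RNase III family, differed by -0.08, -0.11 and -0.09. MRPL58, a peptidyl-tRNA hydrolase built into the large subunit, differed by 0.00, 0.08 and 0.07. MRPS12, a protein of the decoding site, differed by -0.17, 0.07 and 0.04.

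MRPS18A, MRPS18B and MRPS18C are 3 paralogues of 1 bacterial protein. MRPS18C is counted with the genes that have a bacterial counterpart and the other two are not, because their proteins sit elsewhere in the ribosome. MRPS18A differed by -0.19, -0.04 and -0.12 with iDOT1L, iEZH2 and Combo, MRPS18B by -0.12, 0.07 and -0.04, and MRPS18C by -0.14, -0.02 and 0.04, with adjusted p of at least 0.284. Per kb, MRPS18C stood at 1405 normalised counts, MRPS18A at 1079 and MRPS18B at 184.9, with the first and second uncertain for shared sequence. Whether an unnamed ID holds further counts of MRPS18B is not known. MRPS30 held 2084, 2160, 2033 and 1931 in DMSO and 1733, 1898, 1710 and 1665 with iDOT1L, all below the DMSO libraries, and 1858, 1870, 1795 and 1665 with Combo, also below them, although limma called neither without the block (adjusted p = 0.128 and 0.134). The spread within groups was widest, MRPL45 aside, in MRPS26 and MRPL41, with an SD of 0.201 and 0.199 on the log2 scale.

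The other genes of the pathway were read from lists of 98 genes in all, set against DMSO in the same fit. For all these lists, the shares of all genes tested that rose and fell were 3.08% and 3.17% with iDOT1L. They were 1.30% and 2.05% with iEZH2, and 7.22% and 8.80% with Combo. Ribosomal proteins without an MRP symbol are DAP3, PTCD3, AURKAIP1, CHCHD1 and GADD45GIP1, and 0 of these 5 were called with either single inhibitor. With Combo, PTCD3, a pentatricopeptide repeat protein of the small subunit, fell from 2839, 2525, 2972 and 2829 normalised counts in DMSO to 1909, 2394, 2232 and 2215 (-0.35, SE 0.08, limma adjusted p = 0.00395), without overlap. DAP3, a GTP-binding protein of the small subunit, differed by 0.12 with Combo (adjusted p = 0.380). Of 25 genes for assembly of the ribosome, 0 were called with a single inhibitor. With Combo, MTERF3, of the mitochondrial transcription termination factor family, rose (0.46, SE 0.14, adjusted p = 0.0251), and METTL15, a methyltransferase of the small ribosomal RNA, fell (-0.41, SE 0.10, adjusted p = 0.00804). MTERF3 was not called without DMSO library 1 (adjusted p = 0.0996), Combo library 1 (0.0744) or Combo library 3 (0.0566), nor without all libraries numbered 1 (0.111). With the replicate number as a block, METTL15 (-0.32, adjusted p = 0.0679 without and 0.0224 with it) and MRM3 fell with iDOT1L, and NGRN rose with iEZH2.

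Of 16 translation factors and related proteins, 0 were called with a single inhibitor and 2 fell with Combo, GFM2, which recycles ribosomes (-0.36, adjusted p = 0.0206), and LRPPRC, which stabilises mitochondrial mRNAs (-0.38, adjusted p = 0.0397). Neither was called without DMSO library 1 or 2 or Combo library 3 or 4, with adjusted p of 0.0519 to 0.128, nor LRPPRC without Combo library 1 (0.0774) or with TMM scaling (0.0538). Without all libraries numbered 1 their adjusted p was 0.0788 and 0.172. With the replicate number as a block LRPPRC also fell with iDOT1L (-0.31, adjusted p = 0.165 without and 0.00191 with it), and GFM1 was called higher with iEZH2. Of 20 genes for charging mitochondrial tRNAs, IARS2, the isoleucyl-tRNA synthetase, fell with iDOT1L from 5807, 6246, 5614 and 5810 normalised counts to 4742, 4903, 4522 and 4661 (-0.32, SE 0.08, adjusted p = 0.0196). This call was lost without DMSO library 2 (adjusted p = 0.0615), iDOT1L library 3 (0.0713) or iDOT1L library 4 (0.0523), or without all libraries numbered 1 (0.0610). IARS2 also fell with Combo (-0.40, adjusted p = 0.00149), while MARS2 and NARS2, the methionyl- and asparaginyl-tRNA synthetases, rose (0.57, adjusted p = 0.00319, and 0.34, adjusted p = 0.0347). NARS2 was not called without DMSO library 1 or 3 or Combo library 2, 3 or 4, with adjusted p of 0.0674 to 0.107, nor with the correction for length and GC content (0.0724). With the block NARS2 was also called higher with iEZH2. Of 10 genes for upkeep and transcription of mitochondrial DNA, 0 were called against DMSO in any group without the block, and with it PNPT1 was called higher with iEZH2. Of 9 regulators of mitochondrial biogenesis, PPRC1, a coactivator related to PGC-1alpha, rose with Combo, from 1716, 2051, 1878 and 2091 to 2687, 2715, 2876 and 2817 (0.52, SE 0.12, adjusted p = 0.00383), and it was the only 1 of the 9 called against DMSO without the block. With the block PPRC1 also rose with iEZH2 (0.35, adjusted p = 0.119 without and 0.00748 with it), and PPARGC1B, the coactivator PGC-1beta, rose with iDOT1L (0.37, adjusted p = 0.358 and 0.0457). NRF1 and MYC differed by 0.05 and 0.16 with Combo (adjusted p = 0.790 and 0.358).

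The mRNAs that mitochondrial ribosomes translate were read in the same fit. Of the 13 mitochondrially encoded mRNAs, 11 rose with Combo and 0 fell, with a median of 0.62, beside 7.22% and 8.80% of all genes tested. With iDOT1L and iEZH2 0 of the 13 were called, with medians of 0.24 and 0.33, and without iEZH2 library 1, 7 of the 13 rose with iEZH2. The share of all genes tested without that library is not given here. MT-ND5, a subunit of complex I, held 37358, 46105, 45229 and 43958 normalised counts in DMSO and 56632, 59077, 62058 and 57854 with Combo (0.45, SE 0.11, limma adjusted p = 0.00559). All 13 mRNAs together made up 2.13% ± 0.380 of a DMSO library (SD, n = 4), 2.46% ± 0.466 with iDOT1L, 2.66% ± 0.645 with iEZH2 and 3.15% ± 0.436 with Combo. The 78 ribosomal protein genes made up 0.406% ± 0.0258, 0.386% ± 0.0308, 0.437% ± 0.0382 and 0.425% ± 0.00891. The mRNAs come from long transcripts of the same small genome and are not independent of each other. With the replicate number as a block, 9 of the 13 mRNAs rose with iEZH2 and 1 with iDOT1L, and of the 98 genes on all lists 14 rose with iEZH2, 9 of them these mRNAs, and 2 rose and 4 fell with iDOT1L. Over all genes tested the block called 3.87% higher with iEZH2, and 5.69% higher and 6.53% lower with iDOT1L.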

How the data were processed

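The deposited table gives log2 values, scaled across libraries and variance-stabilised by the authors before deposit, for 22445 Ensembl IDs and 16 libraries, 4 per group. Per the submitters' processing notes kallisto, DESeq2 and the hg38 build were used. Their versions, and the transcript annotation, were not given in the sources used here. As the lowest deposited value, 6.28106, stands for a count of 0, the inverse of the transformation gave normalised counts. GENCODE v29 named 20784 of the IDs. Raw depth is not given, so libraries are compared in normalised counts.

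Limma 3.58.1 in R 4.3.3 (trend, robust) was fitted to log2(normalised count + 1) of 22331 genes, those above 1 normalised count in 4 or more libraries, with 4 group means, 12 residual degrees of freedom and no block. P-values were adjusted by Benjamini-Hochberg over all genes tested in each comparison, with 0.05 as the threshold for a call. Log2 differences carry the SE of the limma fit, and levels of a group its mean and SD. Python 3.11.15 did the rest. The fit was tested on simulated data.

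Library titles number the replicates 1 to 4, and the sample names of libraries of 1 number share an ending, without a statement of what it marks. Over 12270 genes with a mean of at least 50, deviations from the group means correlated above 0.1 in all 4 numbers for DMSO with iDOT1L (0.109 to 0.5), DMSO with iEZH2 (0.198 to 0.581) and iDOT1L with iEZH2 (0.113 to 0.639), and these 3 comparisons are also given with the replicate number as a block. With Combo the lowest correlations were 0.0362 to 0.0528, and blocked values stand with the dependence on processing. With a mean of at least 10, 3 of 4 numbers passed in the first 3 pairs.

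The genes and lists were chosen with earlier results of these data known. Genes are named where they were called (up to 12 per direction against DMSO, 6 otherwise), stood highest or lowest in level per kb (4 each), spread most within groups (3) or had a fixed role. Others are named as chosen after their values were seen. Alternatives were the deposited scale, a pseudocount of 8, filters on low values, TMM and median of ratios scaling, only the groups compared, the replicate block, a length and GC correction (92.6% of genes tested had values) and leaving out each library. Leaving out the libraries numbered 1 together was chosen after seeing the data.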

Additional observations from a re-analysis of the deposited data

Results flagged for a closer look

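Among 112 groups of 4 libraries, those of 25 named genes, of the summed level, of the ratio of the subunits and of the share of mitochondrially encoded mRNAs, 4 had 1 library whose gap to the other 3 passed Dixon's critical value. Chance gives about 1 in 20. MRPL48 was at 780.8 normalised counts in iDOT1L library 3, where the other 3 were at 622.0 to 634.8. MRPL57 was at 1544 in Combo library 1, above 1321 to 1351 in the others. MRPS36 was at 404.2 in DMSO library 1, below 480.3 to 488.3, and at 439.8 in iDOT1L library 2, above 381.6 to 389.8.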

How the results depend on the processing

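No named result reversed under any alternative run. Of 16 calls of named genes, 256 of 304 alternative values stayed past the threshold, and 16 of 166 differences not called were called under at least 1 alternative. MRPS6, MRPL1 and MRPS27 with iDOT1L, MRPL1 and MRPL57 with Combo, MRPS6 between Combo and iEZH2, and MRPS6 and MRPL1 between iDOT1L and iEZH2 kept their calls in all 19. The cause of the changes below was not tested. Among the alternative fits, the share of all genes tested is given only for the block alone. In the others a general change in calls cannot be told from one in these genes. With a mean of at least 10, 5 genes fell with iDOT1L, 5 rose with Combo and 9 were lower in iDOT1L than in iEZH2. With median of ratios scaling, 6 rose with Combo and 1 was higher in Combo than in iEZH2. With only the groups compared, 1 rose and 2 fell with Combo, 1 was lower in Combo than in iEZH2, and 2 were lower in iDOT1L than in iEZH2. With the length and GC correction 1 rose with Combo.

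With the replicate block 6 fell with iDOT1L, 1 rose with iEZH2, 10 rose (MRPL12 among them) and 6 fell with Combo, 5 were higher in Combo than in iDOT1L, 1 was higher and 3 lower in Combo than in iEZH2, and 19 were lower in iDOT1L than in iEZH2. With the replicate block and the length and GC correction together these counts were 11 for falls with iDOT1L, 3 for rises with iEZH2, 5 rises and 7 falls with Combo, 6 higher in Combo than in iDOT1L, 7 lower in Combo than in iEZH2, and 1 higher and 23 lower in iDOT1L than in iEZH2. Without 1 library at a time, or without the libraries numbered 1, 3 to 4 fell with iDOT1L, 0 to 2 rose with iEZH2, 1 to 4 rose and 1 to 6 fell with Combo, 0 to 1 were higher in Combo than in iDOT1L, 1 to 3 were lower in Combo than in iEZH2, and 2 to 12 were lower in iDOT1L than in iEZH2. Of the 10 genes for upkeep of mitochondrial DNA the block called 2 higher with Combo, and of the 9 regulators 2. Of all genes tested, the block alone called 11.3% higher and 13.3% lower with Combo than in DMSO, 3.78% and 6.26% against iDOT1L, and 4.33% and 5.24% against iEZH2. The interaction gave 0 in every alternative, and could not be fitted with only the groups compared.

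Of the 98 listed genes, 0 rose and 1 fell with iDOT1L, 0 rose and 0 fell with iEZH2, and 15 rose and 5 fell with Combo. Of the 15 rises with Combo, 11 were mitochondrially encoded mRNAs. Over all genes tested, 7.22% rose and 8.80% fell with Combo. With iDOT1L 2 fell with a mean of at least 10 or the length and GC correction, 2 rose and 4 fell with the replicate block, and 5 rose and 5 fell with the replicate block and the correction. With iEZH2 14 rose with the replicate block, and 10 rose and 2 fell with the correction added. With Combo 24 rose with the replicate block, and 23 rose and 8 fell with the correction added. Without 1 library, or those numbered 1, the ranges were 0 to 2 rises and 0 to 2 falls with iDOT1L, 0 to 8 rises with iEZH2, and 12 to 15 rises and 3 to 5 falls with Combo. The summed level differed from DMSO by -8.95% to -2.94% with iDOT1L, 3.14% to 9.90% with iEZH2 and -1.81% to 6% with Combo over these sets, and by -5.43%, 7.16% and 5.13% with TMM scaling and -4.98%, 7.00% and 6.38% with median of ratios scaling. A level near 0, as for the ID used for MRPL45, allows no statement on change.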
